A study of Mus musculus with 12 samples.

Results

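The tendon lineage genes are 7 genes chosen by symbol from the 24421 entries of the deposited count table: Scx, Mkx, Tnmd, Comp, Chad, Cilp and Cilp2. All 7 passed the filter on low counts, which left 13937 genes to test. Messenger RNA was sequenced from the tibialis anterior, a muscle at the front of the lower hindlimb, of 12 male mice aged 4 months. The WT group was 6 C57Bl/6 mice and the other group was 6 mdx/mTR mice, which carry the mdx mutation of the dystrophin gene Dmd on a background in which mTR, the RNA component of telomerase, is altered. The labels do not give the telomerase generation or zygosity, whether the groups were littermates, or how much tendon was dissected with the muscle. They number the samples of a group without saying more of their origin, so p-values measure the spread between these samples.

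Tendon is made of parallel collagen fibres laid down by tenocytes, and it joins the muscle at the myotendinous junction. The transcription factors Scx and Mkx act in the tendon lineage, and the membrane glycoprotein Tnmd is a classical marker of mature tenocytes that lies downstream of Scx. Comp, Chad, Cilp and Cilp2 encode proteins secreted into the matrix of cartilage, tendon and other connective tissue, and none of these 4 is restricted to tendon.

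The WT libraries held between 36903560 and 40981012 counts each, and those of mdx/mTR between 35136327 and 60330410. Levels are given as CPM, counts scaled to a fixed library size by TMM (trimmed mean of M-values). A gene without a count could still lie at up to 3 counts, or 0.0460 to 0.0837 CPM. The mean of Dmd was 237 CPM in WT against 46.8 in mdx/mTR, with no overlap between the groups, and Terc, the gene of the telomerase RNA, was at or below the floor in every library. Defining muscle genes were present in every library: 6 fast fibre genes, among them Myh4 and Mylpf, summed to 102843 to 158935 CPM.

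Of the 7 tendon lineage genes, 6 were higher in mdx/mTR and 0 were lower at an adjusted p below 0.05 (edgeR quasi-likelihood test, Benjamini-Hochberg adjustment over all tested genes). Across all tested genes 48.3% were called in either direction, 25.0% higher and 23.4% lower, so a call alone sets a gene little apart in this comparison. Cilp rose most, followed by Comp, Tnmd and the group of Cilp2, Mkx and Scx, while Chad was not called. The groups did not overlap for 2 of the 7, Cilp and Comp, where 12.6% of all tested genes were higher without overlap. The median log2 fold change of the 7 was 0.63, against 0.01 over all tested genes. In whole muscle, more cells of a type and more RNA per cell cannot be told apart.

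**Figure D1:**
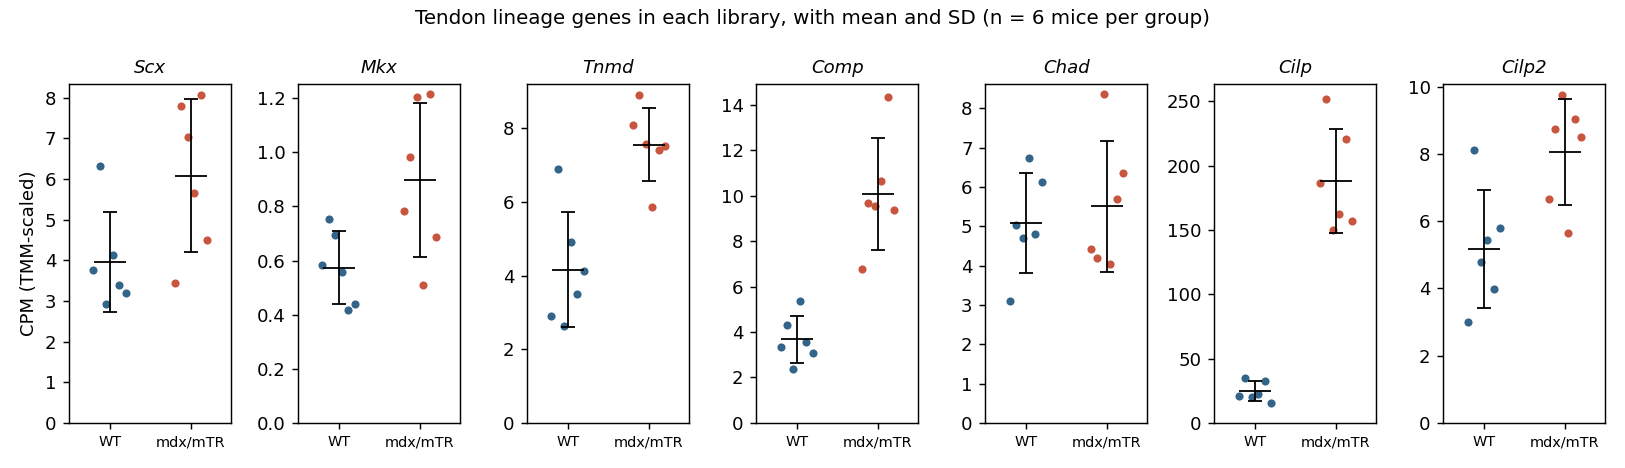
TMM-scaled CPM (linear vertical axes that start at 0) of the 7 genes in the 6 WT and 6 mdx/mTR libraries. Points are mice, and the bars mark the mean and SD of each group; Cilp and Comp are the panels in which every mdx/mTR mouse lies above every WT mouse.

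Scx encodes scleraxis, a basic helix-loop-helix transcription factor of tendon progenitors and tenocytes. It lies at chr15:76457452-76459458 on the plus strand (GRCm38, GENCODE M21). Its level in WT ran from 2.91 to 6.31 CPM with a median of 3.57, and in mdx/mTR from 3.43 to 8.07 CPM with a median of 6.34. The groups overlapped: WT replicate 2 stood above 3 of the 6 mdx/mTR mice in the plot of CPM by library, and mdx/mTR replicates 1, 4 and 6 lay inside the WT range. The log2 fold change was 0.62 ± 0.23 (SE, n = 6 each; edgeR adjusted p = 0.0356). This call rested on the full set of mice and on the test: it was lost in 8 of 12 fits that left out 1 mouse (WT replicates 1, 3, 4, 5 and 6, and mdx/mTR replicates 2, 3 and 5), with adjusted p up to 0.0799, and in limma-voom (0.58, adjusted p = 0.0649). Scx sits inside an intron of Bop1 on the opposite strand, sharing 0 exonic bases with it. Strand handling in the counting is not given in the sources used here, so reads of unspliced Bop1 could be counted as Scx. Bop1 itself was 31.9 ± 1.59 CPM in WT against 30.8 ± 1.20 in mdx/mTR (SD, n = 6 each), with a log2 fold change of -0.05 (edgeR adjusted p = 0.391). That sign turned positive with library totals alone (0.11, adjusted p = 0.136).

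Mkx encodes mohawk, a homeobox factor needed for normal collagen content of tendon. It was the least abundant of the 7, with 16 to 27 counts per library in WT and 25 to 64 in mdx/mTR. Its level ran from 0.418 to 0.754 CPM in WT (median 0.570) and from 0.511 to 1.21 CPM in mdx/mTR (median 0.883). The lowest mdx/mTR mice, replicates 4 (0.511 CPM) and 6 (0.687 CPM), lay within the WT range. The log2 fold change was 0.63 ± 0.24 (SE, n = 6 each; edgeR adjusted p = 0.0409), and the call was lost in limma-voom (0.58, adjusted p = 0.0726), without a low-count filter (adjusted p = 0.0553) and in 7 of 12 fits without 1 mouse (WT replicates 1, 4, 5 and 6, and mdx/mTR replicates 2, 3 and 5). Of the 50-base stretches of the Mkx transcript, 4.22% also occur in an overlapping transcript on the same strand, and no other member shares any with another gene.

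Tnmd encodes tenomodulin, a type II membrane glycoprotein of tenocytes that regulates their proliferation and collagen fibril growth. It lies at chrX:133850980-133865577 on the plus strand. Its level ran from 2.64 to 6.90 CPM in WT (median 3.82) and from 5.87 to 8.90 CPM in mdx/mTR (median 7.55). WT replicate 2 was the one WT mouse inside the mdx/mTR range. Tnmd rose by 0.86 ± 0.20 on the log2 scale (SE, n = 6 each; edgeR adjusted p = 0.0027), a 1.82-fold higher level. It stayed past the threshold in all 12 fits without 1 mouse, with log2 fold changes of 0.76 to 1.06.

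Comp encodes cartilage oligomeric matrix protein, a pentameric member of the thrombospondin family that binds collagen and helps fibrils to assemble. It lies at chr8:70373558-70382066 on the plus strand. Its level ran from 2.39 to 5.36 CPM in WT (median 3.46) and from 6.76 to 14.3 CPM in mdx/mTR (median 9.62). Every mdx/mTR mouse was above every WT mouse. Comp rose by 1.45 ± 0.19 on the log2 scale (SE, n = 6 each; edgeR adjusted p = 5.1e-05), a 2.73-fold higher level.

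Cilp encodes cartilage intermediate layer protein, a matrix glycoprotein known to bind TGF-beta and to antagonise its signalling. It lies at chr9:65265180-65280605 on the plus strand. It was the most abundant of the 7, with 15.3 to 35.2 CPM in WT (median 21.6) and 149.9 to 252 CPM in mdx/mTR (median 174). The lowest mdx/mTR mouse, replicate 3, was far above the highest WT mouse, replicate 2. Cilp rose by 2.94 ± 0.20 on the log2 scale (SE, n = 6 each; edgeR adjusted p = 2.3e-07), a 7.70-fold higher level, and by 2.84 to 3.08 in the fits without 1 mouse.

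Cilp2, the paralog of Cilp, encodes a matrix protein of the same family. It lies at chr8:69880369-69887687 on the minus strand. Its level ran from 3.0 to 8.12 CPM in WT (median 5.11) and from 5.66 to 9.76 CPM in mdx/mTR (median 8.62). The groups overlapped, since WT replicate 2 stood above 2 mdx/mTR mice and mdx/mTR replicate 4 stood below 2 WT mice. The log2 fold change was 0.63 ± 0.20 (SE, n = 6 each; edgeR adjusted p = 0.0181) and stayed past the threshold in all 12 fits without 1 mouse.

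Chad encodes chondroadherin, a leucine-rich repeat protein of cartilage, tendon and bone that binds collagen and the integrin alpha2 beta1. It lies at chr11:94565047-94569127 on the plus strand, in an intron of Acsf2 on the opposite strand, with 0 shared exonic bases. Its level ran from 3.11 to 6.74 CPM in WT (median 4.92) and from 4.05 to 8.37 CPM in mdx/mTR (median 5.05). The groups overlapped: mdx/mTR replicate 3 stood above all WT mice and WT replicate 1 below all mdx/mTR mice. The log2 fold change was 0.11 ± 0.20 (SE, n = 6 each; edgeR adjusted p = 0.679), with a 95% interval of -0.34 to 0.56, and it was -0.04 without mdx/mTR replicate 3. Acsf2 was 1.88 ± 0.623 CPM in WT against 2.44 ± 0.642 in mdx/mTR (SD, n = 6 each), and was not called (0.37, edgeR adjusted p = 0.188).

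**Figure D2:**
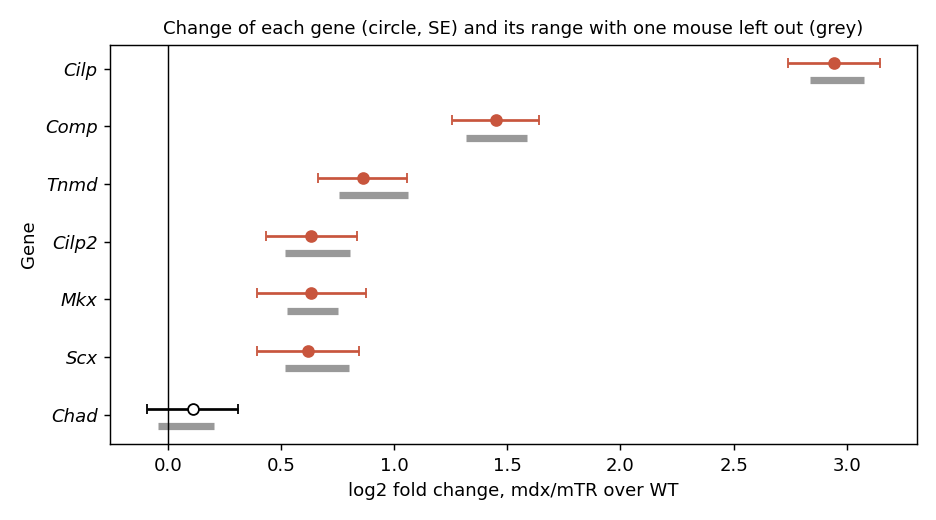
Change between WT and mdx/mTR on the log2 scale (horizontal axis; above 0 is higher in mdx/mTR) for each gene, with its SE (circle and bar; filled where the edgeR adjusted p is below 0.05), above the range of values when each of the 12 mice is left out in turn (grey). Chad is the one gene whose range crosses 0, and Cilp and Comp lie to the right of all ranges of the others.

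The windows before the start sites of Cilp, with the largest rise, and Chad, the gene that was not called, are shown to compare their E-boxes, the letters CANNTG that basic helix-loop-helix factors such as scleraxis bind. Both windows are 250 bases long, come from RefSeq on GRCm38.p6, are written 5′ to 3′ on the plus strand and have the E-boxes in capitals. The first is chr9:65264930-65265179 and the second is chr11:94564797-94565046.
Cilp: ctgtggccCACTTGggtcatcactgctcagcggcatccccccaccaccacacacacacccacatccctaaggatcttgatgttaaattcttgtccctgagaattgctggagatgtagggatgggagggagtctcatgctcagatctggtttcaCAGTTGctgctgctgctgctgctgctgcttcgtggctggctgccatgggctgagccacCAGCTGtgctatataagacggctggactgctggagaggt
Chad: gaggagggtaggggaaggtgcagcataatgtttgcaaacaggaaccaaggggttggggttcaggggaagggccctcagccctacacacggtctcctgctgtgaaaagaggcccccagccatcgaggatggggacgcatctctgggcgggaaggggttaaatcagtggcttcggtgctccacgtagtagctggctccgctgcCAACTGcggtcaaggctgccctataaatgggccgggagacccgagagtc
Cilp has 3 matches, which begin 242, 97 and 39 bases before the start. Chad has 1 match, which begins 49 bases before it. From the RefSeq table, windows of 4 of the 7 genes were used: Cilp, Chad, Cilp2 and Tnmd. No window of the other genes was used, which does not show that the table lacks them. In the window of that length before the RefSeq start, Cilp2 has 1 match and Tnmd has 0. The Cilp2 window, chr8:69887393-69887642 on the minus strand, lies inside the GENCODE span of Cilp2 given above. The Tnmd window, chrX:133850758-133851007, runs past the GENCODE start of Tnmd. Of the 32851 such windows counted, 66.2% hold at least 1 E-box, so a match is common. The letters CAGAC, a core that SMAD factors bind, or their reverse complement GTCTG, occur 2 times in Cilp2 and 0 times in Cilp, Chad and Tnmd, against a share of 42.2% of all windows. The letters GCGNGGGCG of the EGR factors, on either strand, occur once in Cilp2 and in 4.70% of all windows. These matches are descriptions of the windows.

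The sizes of the changes were compared directly through the ratio of 2 genes within a library, which does not depend on the scaling of libraries. These ratios, and Col1a1 among them, were chosen after the values were seen. All pairs of the 7 genes and of Col1a1, the main fibrillar collagen chain of tendon and of scar, gave 28 ratios, each with a two-sided exact permutation test over the 12 libraries and Benjamini-Hochberg adjustment over the 28. The smallest p this design allows is 0.00216. Cilp stood at 2.64 to 8.16 times the counts of Cilp2 in the WT libraries and at 15.4 to 28.8 times in the mdx/mTR libraries. The lowest mdx/mTR ratio was well above the highest WT ratio, and the mean log2 ratio differed by 2.30 (exact permutation p = 0.00216, adjusted p = 0.0076). The paralogs therefore differed in the size of their rise. Comp stood at 0.50 to 1.07 times the counts of Chad in WT and at 1.14 to 2.63 times in mdx/mTR, again without overlap (difference in log2 ratio 1.35, exact permutation p = 0.00216, adjusted p = 0.0076).

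Cilp rose more than each of the other 6 genes, by 1.52 (against Comp) to 2.87 (against Chad) on the log2 scale, with the smallest p the design allows for all 6. Comp rose more than Scx (0.86), Mkx (0.87), Cilp2 (0.78) and Chad (1.35), with exact permutation adjusted p of 0.0076 to 0.0321. Against Tnmd the difference of 0.54 did not pass (exact permutation p = 0.0455, adjusted p = 0.0707). Tnmd and Cilp2 each rose more than Chad, by 0.82 (exact permutation adjusted p = 0.0283) and 0.57 (exact permutation adjusted p = 0.0303). The changes of Scx and Mkx were not shown to differ from that of Chad (0.50 and 0.49, exact permutation adjusted p = 0.207 and 0.176), nor were those of Scx, Mkx, Tnmd and Cilp2 from each other.

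**Figure D3:**
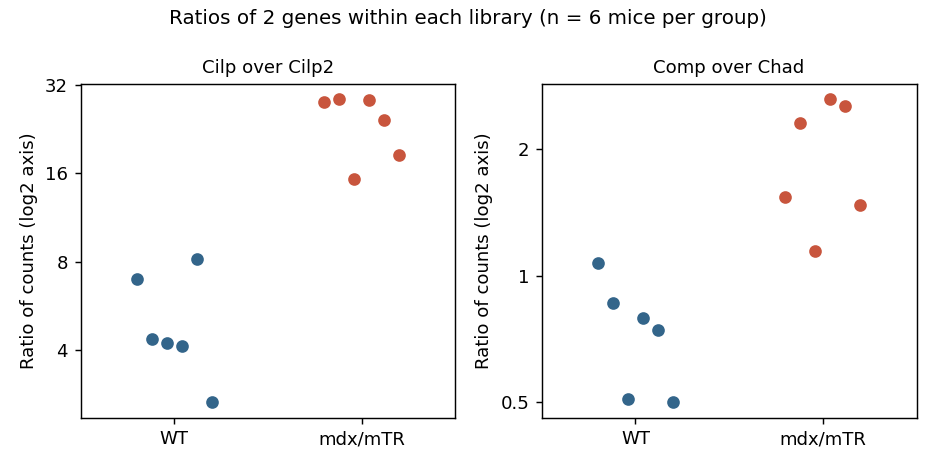
Ratio of raw counts of Cilp over Cilp2 (left) and of Comp over Chad (right) in each library, on log2 axes, with 1 point per mouse and 6 mice per group. In both panels all mdx/mTR mice lie above all WT mice, from 15.4 against 8.16 on the left and from 1.14 against 1.07 on the right.

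The 7 genes were also set against Col1a1 in the same library. Col1a1 itself rose from 270.0 ± 94.7 to 712 ± 322 CPM (log2 fold change 1.40 ± 0.28 SE, n = 6 each; edgeR adjusted p = 0.0012). Cilp gained on Col1a1 by 1.62 on the log2 scale (exact permutation p = 0.00216, adjusted p = 0.0076). Scx, Mkx, Cilp2 and Chad lost ground to it by differences of -0.76, -0.77, -0.68 and -1.26 (exact permutation adjusted p of 0.0165 to 0.0260). For Comp (0.10, exact permutation adjusted p = 0.786) and Tnmd (-0.44, adjusted p = 0.144) no difference from Col1a1 was shown.

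Levels were compared between genes as CPM per kilobase of the longest coding transcript. In WT the order was Cilp (5.88 ± 1.87), Scx (3.82 ± 1.19), Tnmd (3.08 ± 1.16), Chad (3.03 ± 0.751), Comp (1.52 ± 0.431), Cilp2 (1.20 ± 0.407) and Mkx (0.157 ± 0.0368 CPM per kilobase; SD, n = 6 each). Each neighbour in that order overlapped with the next over the libraries, except that Mkx lay below all others. In mdx/mTR the order was Cilp (45.3 ± 9.77), Scx (5.88 ± 1.81), Tnmd (5.59 ± 0.737), Comp (4.16 ± 1.02), Chad (3.28 ± 0.994), Cilp2 (1.87 ± 0.363) and Mkx (0.246 ± 0.0782 CPM per kilobase; SD, n = 6 each). There Cilp stood apart from Scx in every library, Chad from Cilp2 and Cilp2 from Mkx, while Scx, Tnmd, Comp and Chad overlapped with their neighbours. Comp passed Chad in the order, from below it in WT to above it in mdx/mTR.

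The mice of a group also differed among themselves. Among WT mice, replicate 2 was highest for 5 of the 7 genes (Scx, Mkx, Tnmd, Cilp and Cilp2), and replicate 4 was highest for the other 2, Comp and Chad. WT replicate 3 was lowest for Scx, Tnmd and Comp. Among mdx/mTR mice, replicate 5 was highest for Scx, Mkx and Comp, replicate 3 for Chad and Cilp2, and replicate 2 for Tnmd and Cilp. The mdx/mTR mouse with the lowest Mkx, Tnmd, Chad and Cilp2 was replicate 4. Without WT replicate 2, all 6 calls held and the log2 fold changes were 0.80 for Scx, 0.73 for Mkx, 1.06 for Tnmd, 1.5 for Comp, 3.08 for Cilp and 0.81 for Cilp2.

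Within a group, 21 pairs of the 7 genes were correlated over the 6 libraries on the log2(CPM + 0.5) scale, giving 42 relations in all. In WT 19 of 21 Pearson coefficients were positive, with a median of 0.439, and in mdx/mTR also 19 of 21, with a median of 0.372. None of the 42 passed after adjustment (exact permutation test, smallest adjusted p = 0.627), and 3 had an unadjusted p below 0.05. The closest pair in WT was Scx with Tnmd (r = 0.864, rho = 0.771; exact permutation p = 0.0264 and 0.103). Without WT replicates 2 and 3, the mice farthest from the median of Scx, its r was 0.275. That cut narrows the range of Scx and leaves few mice, so it cannot tell whether the relation rested on them. In mdx/mTR the closest was Mkx with Cilp2 (r = 0.848, rho = 0.886; exact permutation p = 0.0319 and 0.0333), with r = 0.649 without replicates 4 and 5.

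The genes most like each member were ranked among 12207 tested genes with a mean of at least 1 CPM by the smaller of the Pearson coefficients in the 6 WT and in the 6 mdx/mTR libraries. With so many genes and so few libraries, high coefficients arise for some gene by the ranking itself, and they are given as a description. For Chad the first was Fmod, the collagen-binding proteoglycan fibromodulin of tendon and cartilage, with r of 0.916 in WT and 0.945 in mdx/mTR. The other 2 for Chad were Igfals (0.928 and 0.850) and Aqp1 (0.836 and 0.870).

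For Scx the first were Fabp5 (r of 0.970 and 0.954), Lmnb1 (0.953 and 0.964) and Lrrc56 (0.945 and 0.972). For Comp they were Scarf2 (0.945 and 0.948), Rad9a (0.935 and 0.988) and Sfrp4 (0.952 and 0.910), the last a secreted antagonist of Wnt signalling. For Tnmd they were Fbxo18 (0.908 and 0.969), Ptgr1 (0.894 and 0.898) and Yes1 (0.870 and 0.897). For Cilp they were Slc27a4 (0.956 and 0.912), Rhno1 (0.868 and 0.933) and Tanc2 (0.909 and 0.862), and for Cilp2 Arhgef7 (0.917 and 0.996), Zkscan6 (0.977 and 0.899) and Rnf26 (0.948 and 0.896). For Mkx they were Grb10 (0.920 and 0.914), Aplp1 (0.909 and 0.982) and Traf4 (0.927 and 0.897). None of these 21 is another of the 7 genes.

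Of 15 signals and partners of the tendon lineage 13 were tested, 4 were higher and 3 lower, shares near the 25.0% and 23.4% of all tested genes. The median log2 fold change was 0.04, which turned to -0.02 with at least 1 CPM in 6 libraries (12 genes tested) and to -0.03 without mdx/mTR replicate 5. Tgfb1, a ligand that induces Scx, rose from 6.94 ± 1.08 to 14.0 ± 4.27 CPM (1.01 ± 0.17 SE, n = 6 each; edgeR adjusted p = 3.8e-04). Gdf6, a bone morphogenetic protein used to drive tendon formation, rose from 0.140 ± 0.0804 to 0.451 ± 0.0679 CPM (1.66 ± 0.30 SE, n = 6 each, edgeR adjusted p = 5.1e-04). Its counts were few, at 2 to 11 per library in WT, near the floor, and 19 to 33 in mdx/mTR. Egr1, an early growth response factor that acts on tendon collagen genes, was 65.2 ± 22.3 CPM in WT against 54.3 ± 15.8 in mdx/mTR (SD, n = 6 each) and was not called (-0.26, edgeR adjusted p = 0.369). The lower calls, Smad2 (-0.19), Smad3 (-0.28) and Gtf2ird1 (-0.21), had edgeR adjusted p of 0.0277, 0.0454 and 0.0485. They did not hold in every setting. Lower calls numbered 4 with DESeq2 or without mdx/mTR replicate 4. There were 3 with the size factors of DESeq2, with limma-voom or without WT replicate 2. There were 0 with upper quartile scaling. With at least 1 CPM in 6 libraries, or without WT replicate 1 or 5 or mdx/mTR replicate 3 or 5, there was 1. The remaining fits without 1 mouse gave 2. With library totals alone 5 of the 13 tested genes were higher and 0 lower. That scaling shifts the median of all genes by 0.16 on the log2 scale.

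The matrix genes of tendon, most of which fibroblasts of muscle also express, were higher in 20 of 26 cases (25.0% of all tested genes) and lower in 0 (23.4% of all), with a median of 1.10. The 2 smallest p-values were those of the proteoglycan genes Dcn, from 336 ± 27.4 to 506 ± 32.9 CPM (0.59 ± 0.06 SE, n = 6 each; edgeR adjusted p = 1.0e-05), and Lum, from 32.2 ± 9.34 to 83.9 ± 20.8 CPM (1.38 ± 0.19 SE, n = 6 each; edgeR adjusted p = 6.4e-05). Tppp3, a marker of tendon sheath cells, rose by 0.69 ± 0.12 (SE, n = 6 each; edgeR adjusted p = 3.3e-04). Kera, which encodes the proteoglycan keratocan, was 5.86 ± 1.46 CPM in WT against 5.79 ± 1.30 in mdx/mTR (SD, n = 6 each) and was not called (-0.02, edgeR adjusted p = 0.945; 0.13 with library totals alone). Postn, which encodes the matrix protein periostin, rose by 2.33 ± 0.62 (SE, n = 6 each; edgeR adjusted p = 0.0071), with overlap between the groups. Without mdx/mTR replicate 5, which was at 307 CPM with the other mdx/mTR mice at 42.4 to 151, its rise was 1.66 on the log2 scale. The WT mice were split as well, with replicates 2 and 4 at 46.2 and 40.2 CPM and the others at 6.72 to 13.3. Over all fits without 1 mouse the rise of Postn was 1.66 to 2.71.

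Comp has 4 relatives among the thrombospondins, and all 4 were higher, against 25.0% of all tested genes. Thbs4, a thrombospondin of tendon and the myotendinous junction, was the most abundant per length, at 30.5 CPM per kilobase in WT and 67.9 in mdx/mTR, and rose by 1.16 ± 0.19 on the log2 scale (SE, n = 6 each; edgeR adjusted p = 3.1e-04). Thbs3 rose by 1.30, Thbs1 by 1.16 and Thbs2 by 0.83 (edgeR adjusted p = 6.3e-06, 0.0027 and 0.0155). Of 9 relatives of the other members, 3 were tested. Tcf15, a basic helix-loop-helix relative of Scx, fell from 10.3 ± 0.778 to 7.12 ± 0.763 CPM (-0.53 ± 0.08 SE, n = 6 each; edgeR adjusted p = 1.7e-04). Irx3, of the Iroquois family related to Mkx, and Chadl, related to Chad, were not called (0.25 and 0.22, edgeR adjusted p = 0.282 and 0.199). Irx1, Irx2, Irx5, Irx6 and Lect1, the table's symbol for the chondromodulin gene related to Tnmd, had group means of at most 0.116 CPM, and Irx4 had no count in any library.

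**Figure D4:**
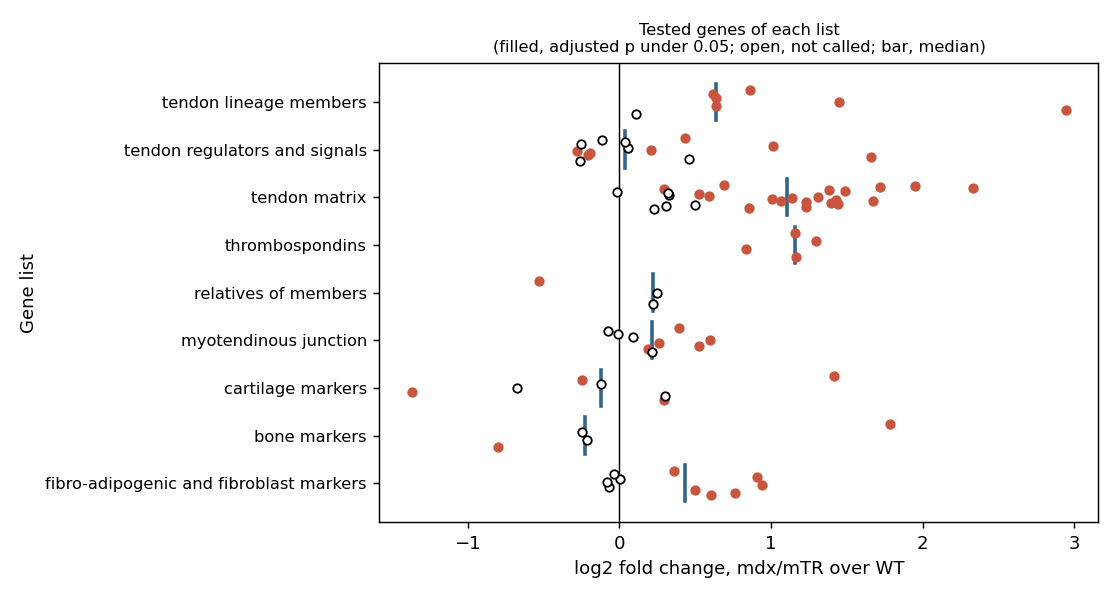
Change between WT and mdx/mTR on the log2 scale (horizontal axis; above 0 is higher in mdx/mTR) of every tested gene in 9 lists (rows); filled points passed an edgeR adjusted p of 0.05, open points did not, and bars are list medians. The tendon matrix and thrombospondin medians (1.10 and 1.16) lie to the right of the median of the 7 tendon lineage genes (0.63). Those of the cartilage and bone markers (-0.12 and -0.23) lie left of 0. The cartilage median turned to 0.03 with library totals alone, where the median of all tested genes was 0.17. The bone median turned to 0.08 without a low-count filter, where 8 genes were tested in place of 4.

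Genes of the myotendinous junction were higher in 5 of 9 cases, against 25.0% of all tested genes, with a median of 0.21. The smallest p-values were those of the laminin receptor chain Itga7 (0.53 ± 0.07 SE, n = 6 each; edgeR adjusted p = 3.7e-05) and the laminin chain Lama2 (0.60 ± 0.08 SE, n = 6 each; edgeR adjusted p = 4.7e-05).

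Markers of other cell types moved with the groups, and their part in the changes of the 7 genes was not tested. Beside the counts of calls below stand the 25.0% higher and 23.4% lower of all tested genes. Cartilage, which also makes Comp, Chad, Cilp and Cilp2, was represented by 15 genes in the table, of which 7 were tested, 2 higher and 2 lower, with a median of -0.12. The sign of that median varied with the setting and the genes tested. It was 0.03 with library totals alone, where the median of all tested genes was 0.17. Without a low-count filter 14 genes were tested and it was 0.12. It was also positive without WT replicate 3, 5 or 6 or mdx/mTR replicate 1, 3 or 4, where 8 genes were tested. The summed level of the 15 genes was 265 to 310.2 CPM in WT and 213 to 287 CPM in mdx/mTR, most of it from Sox6, which muscle fibres also express. The defining cartilage collagen Col2a1 was at 0.302 ± 0.194 CPM in WT against 0.372 ± 0.0831 in mdx/mTR (SD, n = 6 each; 0.30, edgeR adjusted p = 0.488). The aggrecan gene Acan was at 0.198 and 0.237 CPM, below the filter, and Matn1 had no count. Sox9, a factor of cartilage and tendon progenitors, rose from 2.05 ± 0.487 to 5.48 ± 1.47 CPM (1.42 ± 0.20 SE, n = 6 each; edgeR adjusted p = 7.7e-05), and Col9a1 fell by 1.37 (edgeR adjusted p = 0.0013).

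Of 8 bone markers 4 were tested, with Runx2 higher (1.78, edgeR adjusted p = 9.4e-06) and Alpl lower (-0.80, edgeR adjusted p = 1.5e-05), a median of -0.23 and summed levels of 18.9 to 28.9 CPM in WT and 15.3 to 21.4 CPM in mdx/mTR. That sign varied too: the median was 0.08 without a low-count filter, where 8 genes were tested, and 0.07 without WT replicate 4. Markers of fibro-adipogenic cells and fibroblasts were higher in 6 of 10 cases and lower in 0, with a median of 0.43. Their summed level was 356 to 548 CPM in WT and 598 to 788 CPM in mdx/mTR, without overlap. Pdgfra, the receptor that marks these cells, rose by 0.91 ± 0.09 (SE, n = 6 each; edgeR adjusted p = 5.2e-06), and Clec3b by 0.60 ± 0.06 (SE, n = 6 each; edgeR adjusted p = 6.3e-06).

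Macrophage markers were higher in 5 of 6 cases (median 1.66; sums of 48.8 to 81.6 CPM in WT and 102 to 278 CPM in mdx/mTR), led by Cd68 (2.55) and Adgre1 (2.0). Satellite cell and myoblast markers were higher in 4 of 5 cases (median 0.93; sums of 23.6 to 33.8 and 45.0 to 104 CPM), led by Tmem8c (a mean of 0.0592 CPM in WT, near the floor, and 10.2 CPM in mdx/mTR) and Myog (log2 fold change 2.46). Schwann cell markers were lower in 5 of 5 cases (median -0.79; sums of 50.3 to 63.1 and 26.0 to 39.7 CPM), among them Prx (-0.79). Endothelial markers were lower in 4 of 6 cases (median -0.50; sums of 499.9 to 636 and 378 to 477 CPM), led by Tek (-0.53) and Flt1 (-0.69). None of 3 tested adipocyte markers was called (median -0.13, with Cidec at -0.23 and Plin1 at -0.13). The sign of that median and of Plin1 turned positive with library totals alone, where the median of all tested genes was 0.17. Fast fibre markers were higher in 1 of 6 cases (Mylpf, 0.42) and lower in 1 (Myh4, -0.62), with a median of -0.22.

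In the authors' deposited table, 6 of the 7 genes also have an adjusted p below 0.05 and Chad does not. That comparison comes from the same mice, and its share of all genes called is not given here. The DESeq2 run made here on the deposited counts called 6951 genes after the filter that left 13937. The log2 fold changes are 2.76 for Cilp, 1.35 for Comp, 0.80 for Tnmd, 0.58 for Cilp2, and 0.56 for both Scx and Mkx in the authors' deposited table. For Chad the authors' deposited table gives 0.10, with an adjusted p of 0.700. The adjusted p-values of Scx and Mkx in the authors' deposited table are 0.0151 and 0.0336.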

How the data were processed

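RNA of the tibialis anterior was sequenced in 6 WT and 6 mdx/mTR samples, grouped by their labels. The authors deposited raw counts per gene symbol. Their deposited comparison table holds a mean signal per gene, log2 fold changes with SE, a test score, and p-values. FastQC, STAR, DESeq2 and the build mm10 (GRCm38) are named per the submitters' processing notes; the counter, annotation and strand handling are not given in the sources used here.

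Counts were filtered with filterByExpr, scaled by TMM and fitted by group alone with edgeR 4.0.16 (quasi-likelihood test, Benjamini-Hochberg, threshold 0.05, R 4.3.3). The script was also run on simulated data in which 200 genes were changed. That is far fewer than the 6736 called here, so that run does not check scaling or error control at such a share. Alternatives were other scalings and filters, DESeq2 1.42.0, limma-voom (limma 3.58.1), a replicate block, a threshold of 0.01 and leaving out each sample. Ratios and correlations used exact permutation tests (numpy 2.4.6, with ranks from scipy 1.17.1), on the log2 scale. Ratios used a pseudocount of 0.5 counts, and correlations used a pseudocount of 0.5 CPM. Intervals use a t quantile with 10 degrees of freedom. Per-kilobase levels use GENCODE M21 transcripts.

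Named were the 7 genes, Dmd and Terc, the 3 genes most like each member, all relatives and thrombospondins, and the 2 genes of smallest p per list, of which 1 is not reported here. Bop1, Acsf2, Col1a1, Col2a1, Acan, Tppp3, Kera, Egr1, Postn, Smad2, Smad3 and Gtf2ird1 were added after values were seen. Members and lists were chosen with earlier results of these data known.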

Additional observations from a re-analysis of the deposited data

Results flagged for a closer look

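In each group of 6 libraries, the highest or lowest value was set against the others by its gap to the nearest, divided by the whole range, and compared with Dixon's 95% critical value. Of 136 groups of values 14 passed, where chance gives about 1 in 20, or 6.8. Of 14 groups of the tendon lineage genes 1 passed. Scx in WT replicate 2 was 6.31 CPM, with the other WT mice at 2.91 to 4.14 CPM; without that mouse its log2 fold change was 0.80 (edgeR adjusted p = 0.0067).

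WT replicate 2 was also far above the others for Col2a1 (0.670 CPM, others 0.106 to 0.301), Tgfb1 (9.04, others 6.20 to 7.13), Fabp5 (5.30, others 2.66 to 3.45), Lrrc56 (3.18, others 2.17 to 2.36) and Fbxo18 (35.8, others 29.2 to 31.6 CPM). Fabp5, Lrrc56 and Fbxo18 were named for their likeness to Scx or Tnmd, so they are not independent of this mouse.

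WT replicate 4 was far above the others for Gdf6 (0.292 CPM, others 0.0558 to 0.139) and Thbs1 (19.7, others 7.63 to 10.9 CPM), and WT replicate 5 was far below for Plin1 (1.28, others 1.64 to 1.81 CPM). In mdx/mTR, replicate 5 was far above for Thbs2 (45.4 CPM, others 15.7 to 25.1) and Tmem8c (24.97, others 4.72 to 10.8 CPM), and replicate 3 for Cidec (7.03, others 1.85 to 3.49 CPM). The mdx/mTR values far below the others were those of replicate 2 for Chadl (1.06, others 1.66 to 1.68 CPM) and replicate 4 for Fbxo18 (33.2, others 39.7 to 42.6 CPM).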

How the results depend on the processing

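Cilp, Comp and Tnmd kept their calls under every alternative run, and Cilp2 lost its call only at a threshold of 0.01. The count of the 7 genes called was 6 with edgeR, 5 without a low-count filter or with at least 1 CPM in 6 libraries, which leaves out Mkx, 4 with limma-voom and 3 at 0.01. With 1 mouse left out it was 4 to 6. Weaker calls were those of Scx (0.58) and Mkx (0.58) in limma-voom, Mkx without the filter (0.63), and Scx (0.62), Mkx (0.63) and Cilp2 (0.63) at 0.01. With 1 mouse left out the log2 fold changes were 0.52 to 0.80 for Scx, 0.52 to 0.75 for Mkx, 0.76 to 1.06 for Tnmd, 1.32 to 1.59 for Comp, -0.04 to 0.21 for Chad, 2.84 to 3.08 for Cilp and 0.52 to 0.81 for Cilp2. Over all tested genes 6736 were called, 3479 higher and 3257 lower. With library totals alone 7156 were called, 5596 higher and 1560 lower, and at 0.01 4621 were called. The count over all tested genes was 6618 with limma-voom. It was 6827 without a low-count filter and 6076 with at least 1 CPM in 6 libraries, where the number of genes tested also differs. With 1 mouse left out 6125 to 6816 were called, 3163 to 3562 higher and 2950 to 3254 lower. Signs that turned were those of genes near 0 that were not called. Upper quartile scaling gave 0.0217 for Kera, 0.00805 for Lrrc56 and 0.0196 for Slc27a4. Library totals alone gave 0.128 for Kera, 0.134 for Lrrc56, 0.140 for Slc27a4, 0.109 for Bop1 and 0.0229 for Plin1. These scalings moved the median of all tested genes from 0.01 to 0.05 (upper quartile) and to 0.17 (library totals). With 1 mouse left out, values ran from -0.118 to 0.0894 for Kera, -0.120 to 0.0649 for Lrrc56, -0.0569 to 0.00704 for Slc27a4 and -0.326 to 0.0126 for Plin1, and Chad was -0.0421 without mdx/mTR replicate 3. Beyond these shifts of scale, the cause was not tested.

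With the replicate number as a block, 6420 genes and 6 of the 7 were called, with 0.60 for Scx and 0.61 for Mkx. Same-numbered samples deviated together in 2 of 6 pairs only (correlations of -0.14 to 0.33), so the numbers were not taken as pairs. Among the 7 genes Mkx had the fewest counts, 16 to 64 per library.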
